A study of Homo sapiens with 9 samples.

Results

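This report describes 10 human genes tied to the transcription factor ATF4 and to the synthesis of serine and asparagine, in HMEC-1 cells given AMI-1, AMI-5 or only the solvent. The genes are ASNS, PSAT1, PHGDH, PSPH, SHMT2, MTHFD2, CHAC1, TRIB3, DDIT3 and ATF4. They were found by gene symbol in the deposited count tables, and all 10 were among the 18293 genes present in both tables. The set was chosen by pathway with earlier results of these data known, in particular the fold changes of ASNS and PSAT1 in AMI-5 against control. For that reason the AMI-5 against control values of the 10 genes are given as a description, with the p-values left out. Where a gene is said to pass a threshold in that comparison, the call describes the fit. It is no test of the set.

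HMEC-1 cells are endothelial cells of human skin microvessels, made immortal with a viral oncogene, and here they were grown in MCDB131 medium with 5.5 mM glucose. The 3 groups were AMI-1 at 100 µM in DMSO for 16 h, AMI-5 at 100 µM in DMSO for 16 h, and a vehicle control of DMSO alone, with 3 libraries each. The first compound is a urea that joins naphthol sulfonic acids, the second a xanthene dye that carries bromine, and both are used as inhibitors of protein methyltransferases. A single dose and a single time were used, in 1 cell line. Whether libraries of 1 group are separate cultures is not stated in the labels, so the spread between libraries may be technical. Most p-values here come from a fit with the replicate number as a block. They measure the spread left after differences between numbers are removed, which may also be technical.

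ATF4 is the transcription factor at the end of the integrated stress response. In that response kinases phosphorylate the initiation factor eIF2α when amino acids are short, when misfolded protein builds up or under other stresses, and translation of the ATF4 message then rises while most translation falls. Control of ATF4 is therefore largely translational, and its mRNA level need not follow its protein. Its known targets include ASNS, the enzymes that make serine from a glycolytic intermediate, and the mitochondrial enzymes that pass the carbon of serine to folate. Endothelial cells use serine, glycine and folate carbon for nucleotide and haem synthesis.

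ATF4 with a C/EBP partner binds a composite element, and promoter sequences are shown to let the response of each gene be read beside its letters. Promoters from RefSeq (GRCh38.p14), 250 bases before to 50 after the start, were available for 8 of the 10 genes, and those of PSPH and SHMT2 were not used here. The 4 printed belong to the genes past the threshold in AMI-5 against control in the fit with the replicate number as a block. Capitals mark matches, on either strand, to TTGCATCA (a C/EBP-ATF composite site), TGATGNAA (that site read on the other strand, with 1 free base), TGACGTCA (the cAMP response element) and GTTACA (the second nutrient-sensing element described in ASNS).
ASNS promoter, chr7:97872359-97872658, minus strand: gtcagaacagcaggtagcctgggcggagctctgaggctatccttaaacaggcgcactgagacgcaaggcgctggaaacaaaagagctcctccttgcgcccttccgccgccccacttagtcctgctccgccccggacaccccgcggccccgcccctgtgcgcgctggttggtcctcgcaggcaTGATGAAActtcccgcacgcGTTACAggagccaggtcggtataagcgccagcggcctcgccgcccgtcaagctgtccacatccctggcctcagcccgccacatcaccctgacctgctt
CHAC1 promoter, chr15:40953221-40953520, plus strand: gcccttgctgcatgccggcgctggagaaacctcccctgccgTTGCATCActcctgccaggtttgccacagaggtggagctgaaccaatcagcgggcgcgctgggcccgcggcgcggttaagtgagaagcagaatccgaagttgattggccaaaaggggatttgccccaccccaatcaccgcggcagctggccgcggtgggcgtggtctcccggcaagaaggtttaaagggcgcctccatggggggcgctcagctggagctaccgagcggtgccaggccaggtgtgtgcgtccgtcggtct
PSAT1 promoter, chr9:78296875-78297174, plus strand: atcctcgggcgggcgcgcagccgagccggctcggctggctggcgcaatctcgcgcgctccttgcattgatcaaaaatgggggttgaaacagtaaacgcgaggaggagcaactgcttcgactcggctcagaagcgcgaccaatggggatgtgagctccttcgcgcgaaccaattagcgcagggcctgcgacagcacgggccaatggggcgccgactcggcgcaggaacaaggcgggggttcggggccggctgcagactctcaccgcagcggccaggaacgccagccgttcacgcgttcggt
PHGDH promoter, chr1:119711684-119711983, plus strand: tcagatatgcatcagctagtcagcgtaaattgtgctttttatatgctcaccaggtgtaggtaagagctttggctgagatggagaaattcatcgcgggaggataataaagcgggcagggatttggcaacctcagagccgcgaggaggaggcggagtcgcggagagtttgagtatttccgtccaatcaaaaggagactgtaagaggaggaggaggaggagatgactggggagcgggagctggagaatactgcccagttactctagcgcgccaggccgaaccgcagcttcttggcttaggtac
RefSeq gives ASNS a pair of promoter windows, of which the one printed held matches and the other, with a later start, held none. The printed one held TGATGAAA at positions -68 to -61 from the start and GTTACA at -48 to -43. CHAC1 held TTGCATCA at -209 to -202, which also matches TGATGNAA on the other strand. The PSAT1 and PHGDH windows held none of the 4 motifs, and neither did those of MTHFD2, DDIT3 and ATF4. TRIB3 held GTTACA alone. Over 35116 promoters of the same length the share with a match was 0.866% for TTGCATCA, 3.62% for TGATGNAA, 1.85% for TGACGTCA and 6.66% for GTTACA. A match is a description of letters, and a window without one says nothing about binding.

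Poly-A RNA was counted per gene. Counts over the shared genes ran from 14451343 to 24691456 per library, and the 10 genes had 69 to 4583 counts in a library, CHAC1 the fewest. Libraries of 1 replicate number deviated together from their group means. The comparisons are therefore given from a fit with the replicate number as a block (the paired fit) beside one without it. Of 12 endothelial markers, 10 were tested. CDH5, the vascular cadherin, averaged 147 ± 20.8 CPM with AMI-5, 173 ± 15.9 CPM with AMI-1 and 178 ± 25.2 CPM in control cells (SD, n = 3 each), while PECAM1 and CLDN5 were not among the genes tested. Summed endothelial markers spanned 937 to 1186 CPM with AMI-1, 724 to 982 CPM with AMI-5 and 871 to 1245 CPM in control cells. In AMI-5 against control 5 of the 10 were lower in the paired fit (CDH5, TIE1, ENG, ERG and ROBO4) and 1 was higher (ESAM), beside 7.51% of all genes called lower and 3.44% called higher. The GC correction described with the results ended the call of TIE1 (-0.07, edgeR adjusted p = 0.187). Summed fibroblast markers spanned 3060 to 4085 CPM with AMI-1, 2411 to 3110 CPM with AMI-5 and 2951 to 4387 CPM in control cells. COL1A1 held most of that sum, and the fibroblast gene DCN was not tested. COL1A1 was lower in AMI-5 against control (-0.32, edgeR adjusted p = 0.0125), also with the GC correction (-0.15, edgeR adjusted p = 0.00716). Summed smooth muscle and pericyte markers, of which 7 of 8 were tested, spanned 567 to 808 CPM with AMI-1, 498 to 797 CPM with AMI-5 and 551 to 895 CPM in control cells. CSPG4 was lower in AMI-5 against control (-0.32, edgeR adjusted p = 0.0467), a call the GC correction ended (edgeR adjusted p = 0.139). The correction added TAGLN as higher there (0.15, edgeR adjusted p = 0.00586). Of the epithelial markers EPCAM, CDH1, KRT5 and KRT14 were not tested. KRT8 and KRT18 together spanned 264 to 392 CPM with AMI-1, 201 to 372 CPM with AMI-5 and 237 to 411 CPM in control cells. The part of these markers in the results was not tested. In bulk RNA a change in the mix of cells and a change in RNA per cell cannot be told apart.

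Per kilobase of exon, ATF4 had the highest level of the 10 genes in control cells, at 68.6 ± 6.82 CPM per kb (SD, n = 3). SHMT2, the mitochondrial serine hydroxymethyltransferase, followed at 37.1 ± 5.75 CPM per kb. PSAT1 stood at 29.8 ± 4.34 and MTHFD2 at 27.4 ± 4.74 CPM per kb, and the control libraries of SHMT2, PSAT1 and MTHFD2 overlapped. PHGDH at 11.1 ± 1.91, TRIB3 at 10.8 ± 2.39, DDIT3 at 9.13 ± 1.28 and PSPH at 7.54 ± 0.54 CPM per kb overlapped each with the next. The lengths join all annotated exons of a gene, 9217 bases for PHGDH and 2188 for PSAT1, so the order depends on that choice. In CPM without length, PHGDH had 103 ± 17.6 and PSAT1 65.1 ± 9.49 in control cells. ASNS had 5.07 ± 1.22 CPM per kb and CHAC1 was the lowest at 2.82 ± 0.76 CPM per kb, and their control libraries did not overlap with each other or with PSPH.

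Of the enzymes of asparagine and serine synthesis, ASNS, PSAT1 and PHGDH passed the threshold as higher with AMI-5 than in control cells, and PSPH did not. ASNS makes asparagine from aspartate and glutamine. It had 32.4, 47.6 and 40.3 CPM in AMI-5 replicates 1, 2 and 3, against 17.7, 28.5 and 21.5 CPM in control replicates 1, 2 and 3. Every AMI-5 library lay above every control library. The difference was 0.84 ± 0.08 in log2 CPM (SE, paired fit), or 1.79-fold, with a 95% interval of 0.67 to 1.01 on the log2 scale.

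PHGDH, PSAT1 and PSPH catalyse the successive steps from 3-phosphoglycerate to serine. PHGDH, the first, had 142, 106 and 137 CPM in the AMI-5 libraries, against 117, 83.1 and 107 CPM in the control libraries. The groups overlapped, because AMI-5 replicate 2 lay below 2 of the control libraries, but each AMI-5 library was above the control of its own number. The difference was 0.32 ± 0.07 in log2 (interval 0.19 to 0.46). PSAT1, the aminotransferase of the middle step, had 72.6, 107 and 91.2 CPM with AMI-5, against 58.0, 75.9 and 61.5 CPM in control cells. It was higher in 3 of 3 pairs, by 0.47 ± 0.06 in log2 (interval 0.33 to 0.60), or 1.38-fold. PSPH, the phosphatase of the last step, had 23.7, 22.7 and 24.7 CPM with AMI-5, against 19.1, 22.0 and 21.4 CPM in control cells. These groups did not overlap, although the difference was small at 0.19 ± 0.08 in log2 (interval 0.02 to 0.36).

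**Figure D1:**
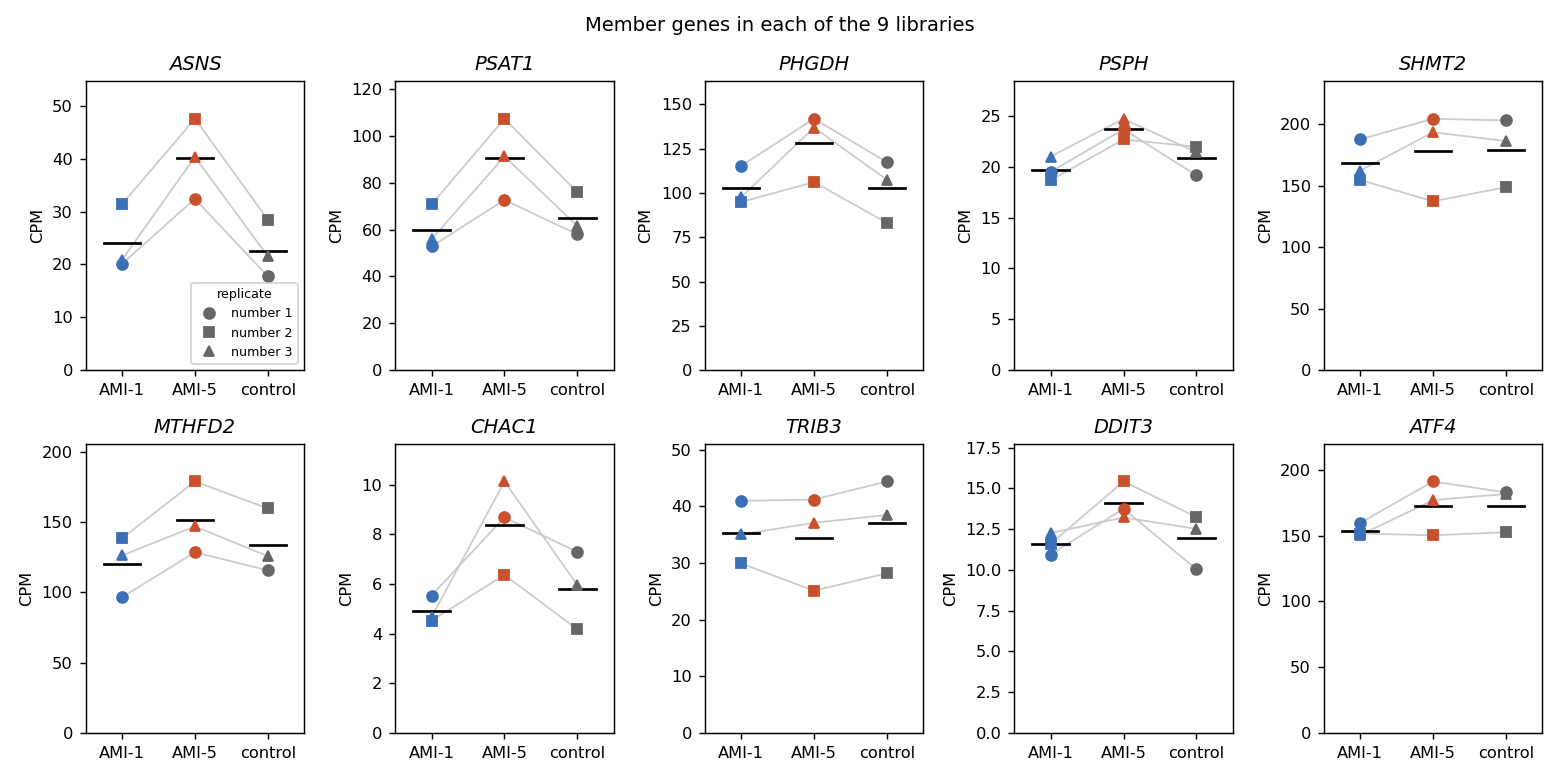
Normalised CPM (counts scaled to library size; vertical axes, from 0) of the 10 genes in each of the 9 libraries, with 1 panel per gene, marker shape for the replicate number, grey lines joining libraries of 1 number and a black bar for the group mean. ASNS lay at 32.4 to 47.6 CPM with AMI-5 and at 17.7 to 28.5 CPM in control cells, while the 3 lines of TRIB3 kept apart by number in every group.

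Neither mitochondrial folate enzyme passed the threshold in the paired fit of AMI-5 against control. MTHFD2, a mitochondrial methylenetetrahydrofolate dehydrogenase, had 128, 179 and 147 CPM with AMI-5, against 116, 159.6 and 126 CPM in control cells. Each pair was higher with AMI-5, by 0.15 to 0.22 in log2 CPM, and the paired difference was 0.18 ± 0.06 (interval 0.06 to 0.31). SHMT2, which moves a carbon of serine to folate, had 205, 137 and 194 CPM with AMI-5, against 203, 149 and 186 CPM in control cells. Its difference was -0.01 ± 0.07 in log2 (interval -0.15 to 0.13), with replicate 2 lowest in both groups.

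Among the stress genes CHAC1 had the largest difference. CHAC1, a glutathione-degrading cyclotransferase, had 8.69, 6.37 and 10.1 CPM with AMI-5, against 7.30, 4.17 and 5.96 CPM in control cells. It was higher in 3 of 3 pairs, by 0.55 ± 0.13 in log2 (interval 0.27 to 0.83), and the groups overlapped. DDIT3, the transcription factor CHOP, had 13.8, 15.4 and 13.2 CPM with AMI-5, against 10.04, 13.2 and 12.5 CPM in control cells. Its pairs were higher by 0.08 to 0.45 in log2 CPM, with a paired difference of 0.24 ± 0.10 (interval 0.03 to 0.45). TRIB3, a pseudokinase that ATF4 and CHOP induce and that restrains ATF4, had 41.2, 25.1 and 37.1 CPM with AMI-5, against 44.4, 28.2 and 38.5 CPM in control cells. It was lower in 3 of 3 pairs, with a difference of -0.10 ± 0.07 in log2 (interval -0.26 to 0.05). ATF4 itself had 191, 150.3 and 177 CPM with AMI-5, against 183, 153 and 182 CPM in control cells, and its difference was 0.0025 ± 0.06 in log2 (interval -0.12 to 0.13).

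In the paired fit ASNS, PSAT1, PHGDH and CHAC1, 4 of the 10, passed an adjusted p of 0.05 as higher with AMI-5, and 0 as lower. Of all 18284 genes tested, 3.44% passed as higher and 7.51% as lower, and since this comparison chose the set nothing is read from the count. The fit without a block called 0 of the 10 and 0% of all genes at an adjusted p of 0.05. DESeq2 without a block also called 0 of the 10. At an unadjusted p under 0.05, the edgeR fit without a block had 2 of the 10, beside 485 of all 18284 genes. Of the 10 genes 7 were higher in 3 of 3 pairs, as were 24.8% of all genes, and in ASNS and PSPH, 2 of the 10, every AMI-5 library lay above every control library, as in 3.98% of all genes. The median log2 difference was 0.21 over the 10 genes and -0.0050 over all genes. PHGDH lost its call without AMI-5 replicate 1, and CHAC1 without control replicate 3 or any 1 of the AMI-5 libraries.

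**Figure D2:**
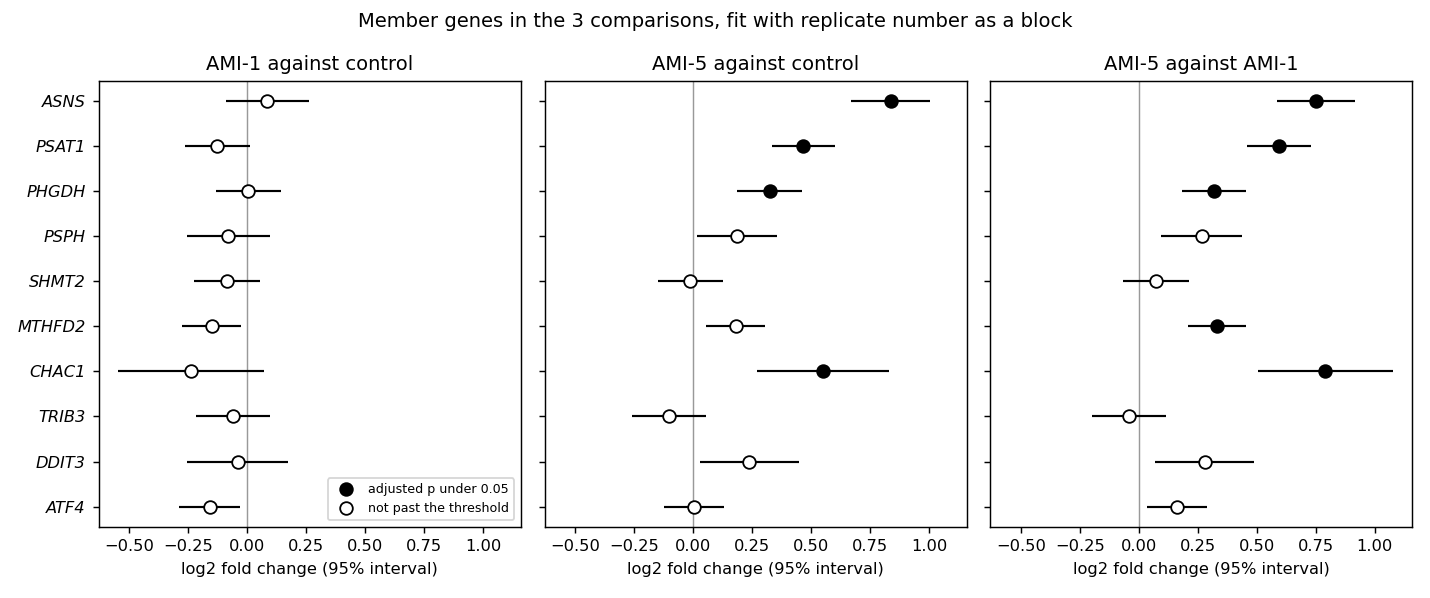
Log2 fold change (horizontal axes) of the 10 genes in each of the 3 comparisons from the paired fit, with bars for 95% intervals and filled points for an adjusted p under 0.05. With AMI-5 the point of ASNS lay at 0.84 against control and 0.75 against AMI-1, while in AMI-1 against control the 10 points lay between -0.24 and 0.09 and none was filled.

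AMI-1 against control asked how these genes stood with the other inhibitor, at the same dose and time. With edgeR's quasi-likelihood test 0 of the 10 passed the threshold, in the paired fit as in the fit without a block, and DESeq2 called 0. Over all genes the paired fit called 0.230% higher and 0.180% lower, and the fit without a block 0%. At an unadjusted p under 0.05 there were 2 of the 10 in the paired fit, MTHFD2 and ATF4, beside 1851 of all 18284 genes. Without the block there were 0 of the 10, beside 187 of all genes. This comparison shares its control libraries with AMI-5 against control.

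ASNS had 20.1, 31.4 and 20.9 CPM in AMI-1 replicates 1, 2 and 3, against 17.7, 28.5 and 21.5 CPM in the control libraries, with the groups overlapping. Its difference was 0.09 ± 0.08 in log2 (interval -0.09 to 0.26, edgeR adjusted p = 0.774). PSAT1 had 52.8, 70.7 and 55.9 CPM with AMI-1, against 58.0, 75.9 and 61.5 CPM in control cells, lower in 3 of 3 pairs at -0.13 ± 0.07 (interval -0.26 to 0.01, edgeR adjusted p = 0.536). PHGDH had 115, 94.9 and 97.5 CPM with AMI-1, and 117, 83.1 and 107 CPM in control cells. Its pairs went both ways and its difference was 0.0056 ± 0.07 (interval -0.13 to 0.14, edgeR adjusted p = 0.988). PSPH had 19.5, 18.7 and 21.0 CPM with AMI-1, against 19.1, 22.0 and 21.4 CPM in control cells, a difference of -0.08 ± 0.08 in log2 (edgeR adjusted p = 0.796).

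Neither mitochondrial enzyme passed the threshold with AMI-1. MTHFD2 had 96.3, 138 and 126 CPM with AMI-1, against 116, 159.6 and 126 CPM in control cells, and differed by -0.15 ± 0.06 in log2 (interval -0.28 to -0.02, edgeR adjusted p = 0.391). Without AMI-1 replicate 3 it passed the threshold (-0.22, edgeR adjusted p = 0.0435). SHMT2 had 188, 155 and 162 CPM with AMI-1, against 203, 149 and 186 CPM in control cells (-0.09 ± 0.07, interval -0.22 to 0.05, edgeR adjusted p = 0.698).

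ATF4 had 159.7, 152 and 150.4 CPM with AMI-1, against 183, 153 and 182 CPM in control cells. It was lower in 3 of 3 pairs, with a difference of -0.16 ± 0.06 in log2 (interval -0.29 to -0.03, edgeR adjusted p = 0.365), and passed the threshold without AMI-1 replicate 2 (-0.24, edgeR adjusted p = 0.0346). CHAC1 had 5.54, 4.53 and 4.66 CPM with AMI-1, against 7.30, 4.17 and 5.96 CPM in control cells (-0.24 ± 0.15, interval -0.55 to 0.07, edgeR adjusted p = 0.611). TRIB3 had 40.9, 29.9 and 35.0 CPM with AMI-1, against 44.4, 28.2 and 38.5 CPM in control cells (-0.06 ± 0.08, edgeR adjusted p = 0.835). DDIT3 had 10.9, 11.6 and 12.3 CPM with AMI-1, against 10.04, 13.2 and 12.5 CPM in control cells (-0.04 ± 0.10, edgeR adjusted p = 0.926). PSAT1 and ATF4, 2 of the 10, were lower in 3 of 3 pairs, beside 15.7% of all genes, and the median of the 10 was -0.08 in log2, against -0.0019 over all genes. These intervals leave room for small changes in either direction for most of the 10 genes.

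The compounds differ in structure and were compared directly, as 1 pair at 100 µM and 16 h. The AMI-5 libraries are those with which the genes were chosen, so this comparison is not independent of the choice. Its counts and p-values for the 10 genes are given as a description and are no test of the set. In the paired fit 5 of the 10 were higher with AMI-5 than with AMI-1, beside 1.62% of all genes called higher and 3.48% called lower. ASNS differed by 0.75 ± 0.08 in log2 (interval 0.59 to 0.92, edgeR adjusted p = 1.47e-05) and PSAT1 by 0.59 ± 0.06 (interval 0.46 to 0.73, edgeR adjusted p = 1.89e-05), each higher in 3 of 3 pairs with groups that did not overlap. CHAC1 differed by 0.79 ± 0.14 (interval 0.50 to 1.08, edgeR adjusted p = 0.00207), with 8.69, 6.37 and 10.1 CPM with AMI-5, against 5.54, 4.53 and 4.66 CPM with AMI-1. These 3 kept their calls with any 1 library left out, at adjusted p-values up to 0.0327.

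MTHFD2 was higher with AMI-5 than with AMI-1 by 0.33 ± 0.06 in log2 (edgeR adjusted p = 0.0028) and PHGDH by 0.32 ± 0.07 (edgeR adjusted p = 0.00716), each in 3 of 3 pairs. Both lost the call without AMI-1 replicate 1 or without AMI-5 replicate 1, with edgeR adjusted p-values up to 0.0775 for MTHFD2 and 0.0879 for PHGDH. PSPH (0.27 ± 0.08, interval 0.09 to 0.44, edgeR adjusted p = 0.0666) and DDIT3 (0.28 ± 0.10, interval 0.07 to 0.49, edgeR adjusted p = 0.118) missed the threshold although their groups did not overlap. ATF4 (0.16 ± 0.06, interval 0.03 to 0.29, edgeR adjusted p = 0.138), SHMT2 (0.07 ± 0.07, interval -0.07 to 0.21, edgeR adjusted p = 0.593) and TRIB3 (-0.04 ± 0.08, interval -0.20 to 0.12, edgeR adjusted p = 0.810) also missed it. Without the block 0 of the 10 passed and 0% of all genes, and DESeq2 without a block called 0 of the 10. At an unadjusted p under 0.05, the edgeR fit without the block had 4 of the 10, beside 478 of all 18284 genes. Of the 10 genes 7 were higher in 3 of 3 pairs, beside 16.7% of all genes, and in 5 every AMI-5 library lay above every AMI-1 library, beside 4.21% of all genes.

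The 10 genes varied among themselves in how much of their spread went with treatment. Of the sum of squares of log2 CPM over the 9 libraries, treatment held 66.3% for ASNS, 62.8% for PSAT1, 71.5% for PSPH and 59.7% for CHAC1. It held 2.85% for TRIB3 and 3.49% for SHMT2, where the replicate number held 91.9% and 82.9%. ASNS, PSAT1 and MTHFD2 were highest in replicate 2 of every group, whereas SHMT2 and TRIB3 were lowest there. For MTHFD2 treatment held 30.8% and the replicate number 65.3%.

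After centring each replicate number, ASNS ran with PHGDH (Pearson r = 0.95), PSAT1 (0.94), CHAC1 (0.88), PSPH (0.83), DDIT3 (0.78) and MTHFD2 (0.73) over the 9 libraries. The r with ASNS was 0.39 for ATF4, 0.23 for SHMT2 and -0.43 for TRIB3. Of 15164 genes with an average log2 CPM above 1, those outside the set most like ASNS were MTX2 (0.99), MAOA (0.99), C5orf45 (0.98), NDUFAF6 (0.98) and RPS27L (0.98). Their pattern was alike but smaller, with differences in AMI-5 against control of 0.17 to 0.37 in log2. The 9 libraries share treatments and replicate numbers, so these values describe the libraries and carry no p-value.

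GC content moved with the AMI-5 result across all genes. The median GC content of the longest transcript was 41.5% in genes called higher with AMI-5, 58.8% in genes called lower and 48.1% over all genes tested. The 10 genes spanned the range, at 41.4% for MTHFD2, 42.3% for PSAT1, 47.0% for ASNS, 49.7% for DDIT3, 49.8% for PSPH, 52.3% for PHGDH, 56.7% for ATF4, 57.0% for SHMT2, 60.9% for TRIB3 and 62.6% for CHAC1. With a GC correction in the paired fit, ASNS differed between AMI-5 and control by 0.83 ± 0.07 in log2, CHAC1 by 0.73 ± 0.11, PSAT1 by 0.40 ± 0.06 and PHGDH by 0.38 ± 0.04. TRIB3 became 0.06 ± 0.06 and SHMT2 0.10 ± 0.04, so their sign turned, and ATF4 became 0.11 ± 0.04.

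With that correction 5 of the 10 were called higher with AMI-5 than in control cells, PSPH being added, beside 5.28% of all genes. In AMI-5 against AMI-1 there were 9 of the 10, all but TRIB3, beside 4.97% of all genes called higher. The genes were chosen with the AMI-5 libraries that both comparisons use, so nothing is read from either count. In AMI-1 against control MTHFD2 was called lower (-0.19 ± 0.04, edgeR adjusted p = 0.00423), beside 2.14% of all genes called lower.

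**Figure D3:**
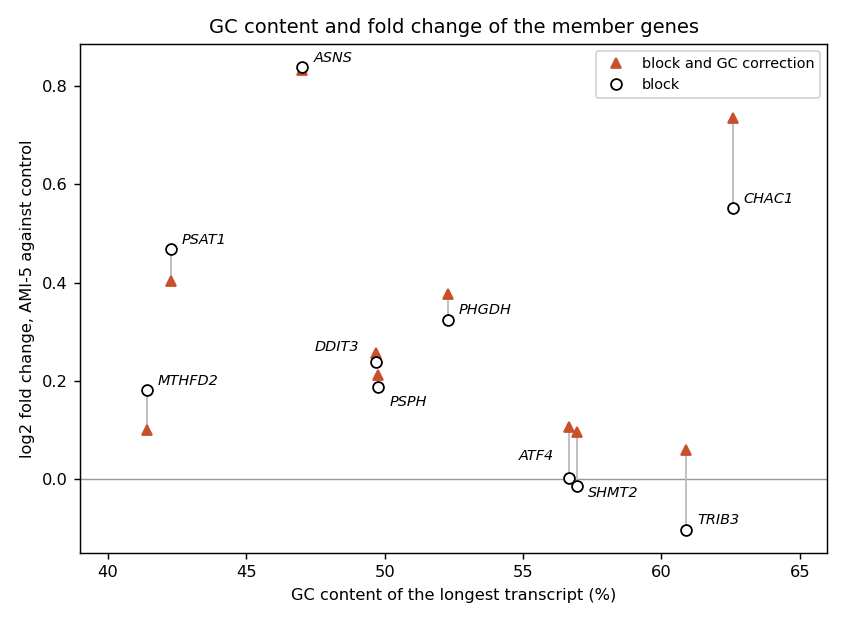
GC content of the longest transcript (horizontal axis, %) against the log2 fold change in AMI-5 against control (vertical axis) of the 10 genes, with open circles for the paired fit and triangles for the paired fit with the GC correction, joined per gene. ASNS stayed at 0.83 to 0.84, while TRIB3 crossed 0, at 0.06 with the correction and -0.10 without it.

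Genes around the pathway were described by 5 lists chosen with earlier results known, and the values are from the paired fit. The first holds the eIF2α kinases, the phosphatase subunits and the subunits of eIF2B. With AMI-5, 1 of its 14 tested genes was higher than in control cells and 1 lower, beside 3.44% of all genes called higher and 7.51% called lower. Counts this small are near those shares. They were the double-stranded RNA kinase gene EIF2AK2 (0.22, edgeR adjusted p = 0.0444) and the eIF2B subunit gene EIF2B5 (-0.22, edgeR adjusted p = 0.0361). EIF2AK3, which encodes the kinase PERK, had 0.22 (edgeR adjusted p = 0.0528) and EIF2AK4, which encodes the amino acid sensor GCN2, -0.12 (edgeR adjusted p = 0.167). With AMI-1, edgeR called 0 of the 14, and DESeq2 with the block called 0. At an unadjusted p under 0.05 there were 2 of the 14, beside 1851 of all 18284 genes. In AMI-5 against AMI-1, 2 were lower, PPP1R15A, the inducible phosphatase subunit GADD34 (-0.31, edgeR adjusted p = 0.0115), and EIF2B5 (-0.24, edgeR adjusted p = 0.0381). Over all genes 3.48% were called lower there.

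Of 20 other folate and glycine one-carbon genes, 1 was higher and 1 lower with AMI-5 than in control cells, also near the 3.44% and 7.51% of all genes. ALDH1L2, the mitochondrial 10-formyltetrahydrofolate dehydrogenase, rose (0.47, edgeR adjusted p = 0.00642), and SFXN3, a mitochondrial serine transporter gene, fell (-0.23, edgeR adjusted p = 0.0229). The list for enzymes of other non-essential amino acids, with 17 genes tested, also held BCAT1, the cytosolic branched-chain aminotransferase. In that list BCAT1 rose with AMI-5 (0.22, edgeR adjusted p = 0.0329) and ASL, the argininosuccinate lyase, fell (-0.27, edgeR adjusted p = 0.0384). These counts, 1 each way, are near the same shares of all genes. With AMI-1, edgeR called 0 genes of either list, and DESeq2 with the block called 0. At an unadjusted p under 0.05 there were 0 of either list, beside 1851 of all 18284 genes. In AMI-5 against AMI-1, SFXN3 was lower (-0.25, edgeR adjusted p = 0.0241) and BCAT1 higher (0.25, edgeR adjusted p = 0.0303), and 0 others passed. Over all genes 1.62% were called higher there and 3.48% lower.

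Of 23 other ATF4 partners and stress targets, 3 were higher and 1 lower with AMI-5 than in control cells, where 3.44% of all genes were called higher and 7.51% lower. The stress factor ATF3 rose (0.52, edgeR adjusted p = 0.0187), as did the tRNA exportin XPOT (0.25, edgeR adjusted p = 0.0117) and KLHL24 (0.42, edgeR adjusted p = 0.0360), while the transcription factor NFE2L1 fell (-0.17, edgeR adjusted p = 0.0495). With the GC correction 6 were called higher and 0 lower, beside 5.28% of all genes called higher and 8.36% called lower. With AMI-1, STC2, the stanniocalcin 2 gene, rose (0.47, edgeR adjusted p = 0.00761), 1 of the 23, beside 0.230% of all genes called higher. In AMI-5 against AMI-1, the stress gene NUPR1 was higher (0.59, edgeR adjusted p = 0.0367), as was XPOT (0.29, edgeR adjusted p = 0.00651), and STC2 was lower (-0.65, edgeR adjusted p = 8.6e-05). Over all genes 1.62% were called higher there and 3.48% lower. With the GC correction 10 of the 23 were called higher and 1 lower there, beside 4.97% of all genes called higher and 6.86% called lower.

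Of 21 chaperone and ERAD genes of the unfolded protein response, which clear misfolded protein from the endoplasmic reticulum, 0 rose and 1 fell with AMI-5 against control, SDF2L1 (-0.36, edgeR adjusted p = 0.00578). Over all genes 3.44% were called higher and 7.51% lower. In the paired fit edgeR called 0 in AMI-1 against control and 0 in AMI-5 against AMI-1, and DESeq2 with the block called 0 in each. At an unadjusted p under 0.05 there were 1 and 4 of the 21, beside 1851 and 3557 of all 18284 genes. The medians of the 5 lists lay between -0.03 and 0.05 in log2 with AMI-5 against control, beside 0.21 for the 10 genes, which this comparison chose. With the GC correction the median of the ATF4 partners and stress targets was 0.14 and that of the 10 genes 0.23. Of the 19 calls of the paired fit without that correction in these lists, none was kept with each of the 9 libraries left out in turn. STC2 in AMI-5 against AMI-1 kept it in 8 of the 9, and KLHL24 in 2. The GC correction ended the calls of EIF2AK2, BCAT1, ASL, KLHL24, NFE2L1 and SDF2L1 in AMI-5 against control, at edgeR adjusted p-values of 0.0783 to 0.144. It also ended those of STC2 in AMI-1 against control (edgeR adjusted p = 0.209) and in AMI-5 against AMI-1 (edgeR adjusted p = 0.0664). It also added calls. In AMI-5 against control EIF2AK3 (0.18, edgeR adjusted p = 0.0263) and the amino acid enzyme PYCR1 (0.31, edgeR adjusted p = 7.04e-06) were then higher. EIF2AK4 was then lower (-0.12, edgeR adjusted p = 0.0322). In AMI-1 against control PPP1R15A became higher (0.29, edgeR adjusted p = 0.000127). With AMI-5 against control the eIF2α list then had 1 of 14 higher and 2 lower, and the amino acid list 2 of 17 higher. The chaperone list had 1 of 21 higher and 0 lower. Of all genes 5.28% were called higher and 8.36% lower. In AMI-5 against AMI-1 the eIF2α list then had 0 of 14 higher and 4 lower, and the one-carbon list 2 of 20 higher and 1 lower. The amino acid list had 3 of 17 higher and 1 lower there, and the chaperone list 1 of 21 higher and 0 lower. Of all genes 4.97% were called higher there and 6.86% lower.

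**Figure D4:**
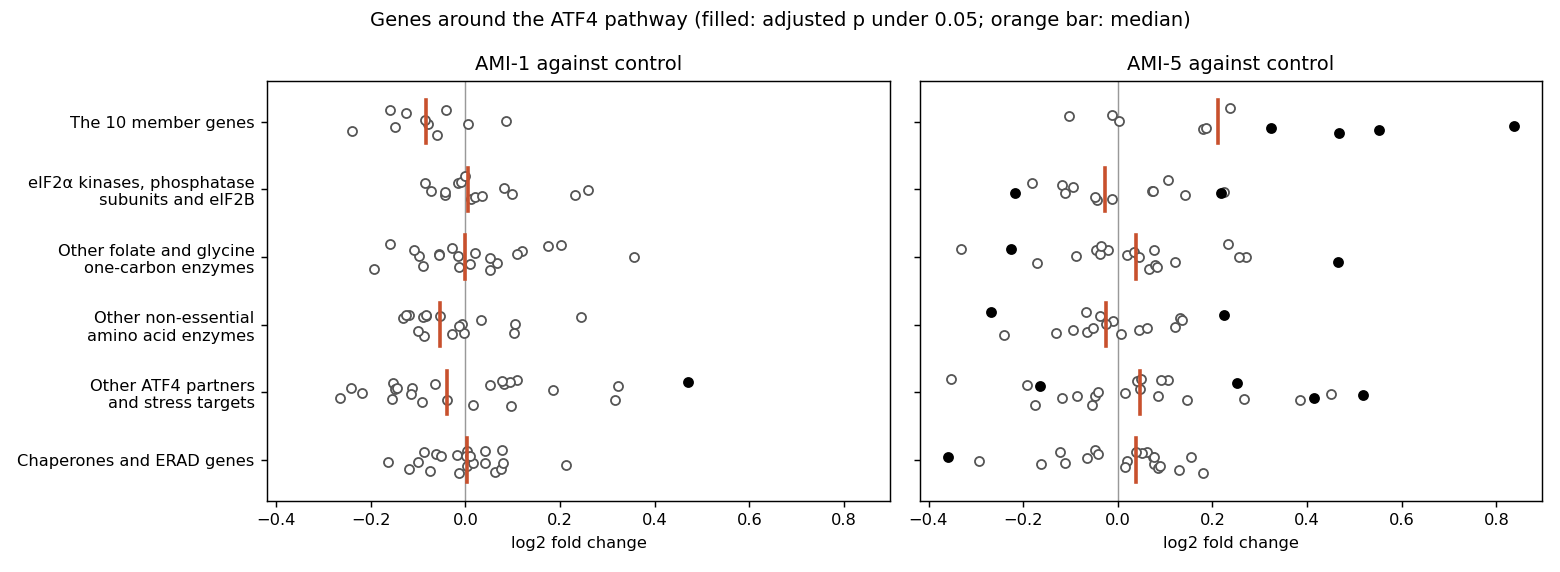
Log2 fold change (horizontal axes) in AMI-1 against control and in AMI-5 against control for the 10 genes and for the genes of the 5 wider lists, from the paired fit, with filled points for an adjusted p under 0.05 and an orange bar for each median. With AMI-5 the median of the 10 genes was 0.21, and those of the other lists lay between -0.03 and 0.05.

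Some of the 10 genes overlap other genes or have copies, and with the strand setting not stated it is unknown whether reads were shared. Exons of ASNS overlap those of AC079781.5 on the same strand by 1985 bases. Neither that gene nor the pseudogenes of ASNS were among the counted genes under those names. Exons of DDIT3 overlap those of MARS, the methionyl-tRNA synthetase, on the opposite strand by 355 bases. MARS had 214 CPM with AMI-5 and 205 CPM in control cells, at a difference of 0.07 in log2 (edgeR adjusted p = 0.476). Exons of MTHFD2 overlap those of SLC4A5 by 1324 bases, and SLC4A5 had 10.03 CPM with AMI-5 and 8.25 CPM in control cells (0.32, edgeR adjusted p = 0.105). Processed copies of PSAT1 were also counted, of which PSAT1P3 had 8.97 CPM with AMI-5 and 6.74 CPM in control cells (0.42, edgeR adjusted p = 0.0271). Copies of PSPH and ATF4 were counted as well, at under 10 CPM each, and reads shared with them were not measured.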

How the data were processed

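The authors deposited raw read counts per gene in a pair of tables, 1 per compound, with the same control columns in each (0 control values differed). BWA, bedtools and hg19 are named per the submitters' processing notes, while their versions, the annotation and the strand setting were not stated. The tables held 18385 and 18598 genes, with a mean count of at least 10 per gene. The 18293 shared genes were used. Counts were fitted in edgeR 4.0.16 (R 4.3.3): TMM, filterByExpr by group (9 genes removed, 18284 tested), robust dispersions, quasi-likelihood F test, all 9 libraries in 1 fit, Benjamini-Hochberg adjustment over all genes, threshold 0.05. CPM use TMM library sizes. Standard errors were derived from the F statistic.

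The paired fit adds the replicate number as a block. The fit without the block was planned as the main one. The paired fit was planned as an alternative beside it, for use if libraries of 1 number deviated together. Libraries of 1 number carry a common prefix in the column names, whose meaning the labels leave out. Deviations from group means correlated at 0.431 to 0.871 within the 9 pairs of 1 number and at -0.804 to 0.204 between numbers, and 9 of 9 libraries were closest to their own number. The biological coefficient of variation was 23.7% without the block and 5.64% with it.

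For the GC correction, the deviation of each library's log2 CPM was smoothed by lowess (span 0.3) over the GC content of the longest GENCODE transcript in 14761 genes, and the curve entered the paired fit as an offset. GC content was known for 95.7% of genes tested. The fits were checked on simulated data. DESeq2 1.42.0 was an alternative. Exon lengths and overlaps came from a GRCh38 annotation, so no coordinates of the counts are given.

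The genes, lists, motifs and tests were chosen with earlier results of these data known. All 10 genes are named in each comparison, with up to 4 genes of each wider list with the lowest adjusted p and, for likeness to ASNS, the 5 genes with the highest r. EIF2AK4, PYCR1 and the marker genes are named outside that rule, after their values were seen. The leukocyte marker list is not reported here.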

Additional observations from a re-analysis of the deposited data

How the results depend on the processing

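The block decides whether any of the 10 genes is called. Without it the counts were 0 in all 3 comparisons, also with DESeq2, other size factors, no filter, 2 groups only or any library left out, and with it they were 4 in AMI-5 against control, 5 in AMI-5 against AMI-1 and 0 in AMI-1 against control. Under the replicate block a fit of 2 groups only called 7 in AMI-5 against control, and the GC correction called 9 in AMI-5 against AMI-1 and 1 in AMI-1 against control. With 1 library left out the paired counts ran from 2 (without AMI-5 replicate 1) to 7 (without AMI-1 replicate 3) in AMI-5 against control. They ran from 3 (without AMI-1 replicate 1 or AMI-5 replicate 1) to 7 in AMI-5 against AMI-1, and from 0 to 1 in AMI-1 against control.

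Signs turned only in values near 0. PHGDH in AMI-1 against control was -0.0021 without the block, and -0.079 to 0.091 with 1 library left out. DDIT3 there ran from -0.11 to 0.028. In AMI-5 against control, SHMT2 was 0.097 with the GC correction and -0.075 to 0.067 with 1 library left out, TRIB3 was 0.060 with the GC correction, and ATF4 ran from -0.038 to 0.050. In AMI-5 against AMI-1, TRIB3 was 0.073 with the GC correction and ran from -0.093 to 0.035. The cause was not tested. In DESeq2 with the block CHAC1 in AMI-5 against control had no adjusted p. Of the counts in the wider lists under other settings, 153 of 450 moved by over 1.5 times. CHAC1 had 69 to 240 counts per library, the fewest of the 10, and the widest intervals in the paired fit. Without the block the intervals of ASNS were wider.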
